A study of Mus musculus with 6 samples.

Results

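The genes described here carry a cell through mitosis and are read in fibroblasts with and without Ezh2. They were found by gene symbol: 57 of the 20723 genes on the array, represented by 64 of its 23346 probe sets. Cyclin B with the kinase Cdk1 starts mitosis, kinetochores tie each chromosome to spindle microtubules, and a checkpoint holds anaphase back until all are attached. Condensin compacts the chromosomes, and the spindle midzone with its contractile ring then divides the cell. In growing cells most of these transcripts accumulate in G2 and mitosis, when the MuvB proteins with B-Myb and FoxM1 act on their promoters, and the DREAM complex represses the same promoters in resting cells.

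RNA was read on whole-transcript arrays from mouse embryonic fibroblast lines (MEF), cultured connective tissue cells, here of strain Ola129. The 6 arrays formed 4 groups: Ink4a/Arf-/- Ezh2 -/- and Ink4a/Arf-/- Ezh2 fx/fx cells with 2 arrays each, and Ink4a/Arf+/+ Ezh2 -/- and Ink4a/Arf+/+ Ezh2 fx/fx cells with 1 array each. Ezh2 encodes the Polycomb methyltransferase of histone H3, and the products of the Ink4a/Arf locus restrain the cell cycle through Rb and p53. The fx/fx cells are the controls of both comparisons, and every Ink4a/Arf-/- group also lacks Ink4a/Arf in its controls. All cells were harvested while growing exponentially in serum with leukemia inhibitory factor. The sources used here do not say how Ezh2 was deleted or whether replicates are separate cultures, so p-values measure only the spread between these arrays. The titles name genotypes, while the series' design text speaks of esiRNA against Ezh2, and the titles were used.

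Values are log2 levels of probe sets, and a difference is the Ezh2 -/- level minus the fx/fx level on the log2 scale. Levels are compared only between arrays of 1 Ink4a/Arf background, because each background has its own table, with a normalization not given in the sources used here. Where a gene has several probe sets, the brightest stands for it. Members were among the brighter genes: their median level was between 10.58 and 10.76 on the Ink4a/Arf-/- arrays and 9.42 and 9.84 on the Ink4a/Arf+/+ arrays. Ezh2 itself gave 10.62 and 10.51 without and 10.92 and 10.91 with the gene in Ink4a/Arf-/- cells, and 10.12 against 10.48 in Ink4a/Arf+/+ cells. This checks no label, since the place of its probes relative to the deletion is not known here. All 9 fibroblast markers were above the array median on all 6 arrays. Of 21 markers of leukocytes, endothelium, epithelium, pluripotent cells and muscle, 0 were above it on all 6. Above it on no array were 4 of 4 endothelial, 4 of 4 pluripotent, 3 of 5 leukocyte, 2 of 4 epithelial and 3 of 4 muscle markers. On fx/fx replicate 1 of Ink4a/Arf-/- cells the median gene lay 0.086 above fx/fx replicate 2, so results in that background are also given without it. In bulk RNA, fewer cells in mitosis and less RNA of these genes per cell cannot be told apart.

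Promoters of these genes shared short sequences that the choice of members did not use. The cell cycle homology region (CHR, letters TTTGAA on either strand) is the element that MuvB complexes are known to bind, and the CCAAT box (letters CCAAT on either strand) is bound by NF-Y. Matches of one motif can overlap those of the other by an end base. RefSeq windows on GRCm38.p6, from 250 bases before to 50 bases after the start, were matched by symbol for 48 of the 57 genes. A CHR match stood in 35 of 48 (72.9%), against 17.3% of the 14208 array genes with a window and 17.9% of all 32851 windows. A CCAAT match stood in 38 of 48 (79.2%), against 42.3% of array genes and 37.4% of all windows. Both stood in 31 of 48 (64.6%), against 6.98% of array genes. The CHR matches lay close to the start: between 50 bases before and 50 after it, 31 of 48 members had one (64.6%), against 3.79% of array genes in the first window listed for each gene.

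**Figure D1:**
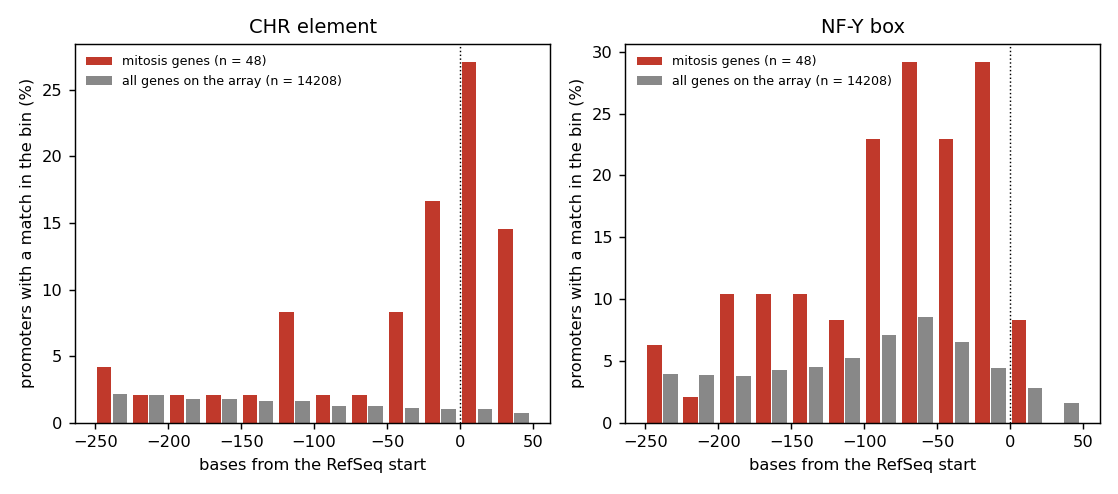
Share of promoters with a match in each 25-base bin (y, percent) against distance from the RefSeq start (x, bases), for 48 mitosis genes (red) and 14208 genes on the array (grey), 1 window per gene. The left panel counts CHR matches, highest in the members within 50 bases of the start, and the right panel counts CCAAT boxes, named by their factor NF-Y, highest in the members within 100 bases before it.

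Because these motifs were common in the members, the last 120 bases before the start are shown for 9 members, 5′ to 3′ on the strand of the gene, with CHR and CCAAT matches in capitals. Cdk1, Cdc20, Espl1 and Kif11 were chosen as a kinase, a checkpoint target, the separase and a motor that hold both motifs here. Ncapg, Top2a and Mki67 are among the members with the largest differences, and Bub3 and Pttg1 are the 2 members that were not lower in Ink4a/Arf+/+ cells.
Cdk1 (chr10:69352913-69353032, minus strand): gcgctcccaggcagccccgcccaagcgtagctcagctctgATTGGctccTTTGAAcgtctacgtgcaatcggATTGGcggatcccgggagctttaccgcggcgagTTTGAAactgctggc
Cdc20 (chr4:118437344-118437463, minus strand): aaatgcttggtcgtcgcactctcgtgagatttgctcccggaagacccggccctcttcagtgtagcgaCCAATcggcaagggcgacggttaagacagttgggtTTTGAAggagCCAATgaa
Espl1 (chr15:102296173-102296292, plus strand): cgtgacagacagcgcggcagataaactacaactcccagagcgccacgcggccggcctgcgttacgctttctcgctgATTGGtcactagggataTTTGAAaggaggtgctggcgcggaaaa
Kif11 (chr19:37376262-37376381, plus strand): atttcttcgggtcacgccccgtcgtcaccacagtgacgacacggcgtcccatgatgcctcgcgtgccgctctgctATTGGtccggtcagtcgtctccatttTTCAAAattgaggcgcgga
Ncapg (chr5:45669805-45669924, plus strand): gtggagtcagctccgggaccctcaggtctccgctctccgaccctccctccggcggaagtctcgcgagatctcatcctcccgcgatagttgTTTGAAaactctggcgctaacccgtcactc
Top2a (chr11:99024190-99024309, minus strand): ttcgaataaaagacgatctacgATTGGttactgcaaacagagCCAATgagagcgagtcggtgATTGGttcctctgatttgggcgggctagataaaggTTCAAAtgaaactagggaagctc
Mki67 (chr7:135716380-135716499, minus strand): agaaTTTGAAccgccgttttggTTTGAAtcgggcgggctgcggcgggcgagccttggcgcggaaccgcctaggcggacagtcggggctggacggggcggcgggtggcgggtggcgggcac
Bub3 (chr7:131560250-131560369, plus strand): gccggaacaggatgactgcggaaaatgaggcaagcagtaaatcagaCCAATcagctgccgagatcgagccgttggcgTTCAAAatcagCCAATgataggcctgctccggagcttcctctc
Pttg1 (chr11:43425982-43426101, minus strand): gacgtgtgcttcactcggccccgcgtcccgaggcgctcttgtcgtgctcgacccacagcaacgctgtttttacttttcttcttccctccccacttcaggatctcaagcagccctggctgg

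In Cdk1 the CHR matches began 71 and 15 bases before the start, and in Kif11 and Top2a the nearest began 19 and 23 bases before it. Mki67 held a pair of CHR matches farther out, at 116 and 98 bases. Bub3 held a CHR match and 2 CCAAT boxes, while Pttg1 held neither motif in its window. Among the roles, CHR matches stood in 4 of 4 cytokinesis genes, 10 of 11 kinesin and spindle genes, 4 of 5 condensin and chromosome genes and 4 of 7 cyclin and kinase genes with a window. For the kinetochore and checkpoint group the count was 10 of 17, without a match in Birc5, Bub1, Cenpe, Cenpi, Cenpk, Mad2l1 and Nuf2. These matches describe letters in a window and show no binding.

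The first comparison sets Ezh2 -/- against fx/fx in cells lacking Ink4a/Arf. All 57 genes read lower on average in Ezh2 -/- cells, against 60.4% of all genes, by small amounts: the median log2 difference was -0.18, or 1.13-fold, with a range from -0.38 in Cenpk to -0.055 in Ccna2. Both Ezh2 -/- arrays lay below both fx/fx arrays for 56 of 57 members, against 23.3% of all genes, and the exception was Bub3. At least 1.2-fold lower were 9 members, against 2.34% of all genes. No gene passed limma's test over all 23346 probe sets, with adjusted p from 0.577 for Top2a to 0.933 for Ccna2 among members (Benjamini-Hochberg). At an unadjusted p below 0.05 limma had 21 lower members, against 3.73% of all genes. Over probe sets, 24 of 64 had such a p in either direction, against 6.93% of all. The median difference over all genes was -0.025. No member was higher on both Ezh2 -/- arrays than on both fx/fx arrays, against 13.4% of all genes. Among the 14525 genes left without the dimmest 30% of probe sets, 24.1% were lower on both arrays and 1.29% at least 1.2-fold lower.

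On the 4 arrays, by the levels as deposited, the median shift of the members was larger than their median gap between replicates, though single genes varied more. Around each gene's mean in its table, the members' median was -0.083 and -0.10 without Ezh2 and 0.085 and 0.10 in the controls. Between the Ezh2 -/- replicates the members' median difference was 0.011, with single members from -0.32 to 0.14, and 0.020 over all genes. Between the fx/fx replicates it was -0.025, with single members from -0.31 to 0.16, and 0.086 over all genes. Relative to all genes, the members were thus also lower on fx/fx replicate 1 than on fx/fx replicate 2. This gap between controls, -0.025 against 0.086 over all genes, is not small beside the Ezh2 shift, which was -0.18 against -0.025 over all genes. Without fx/fx replicate 1 the median difference was -0.20, and without fx/fx replicate 2 it was -0.17, with 57 of 57 members lower each time.

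**Figure D2:**
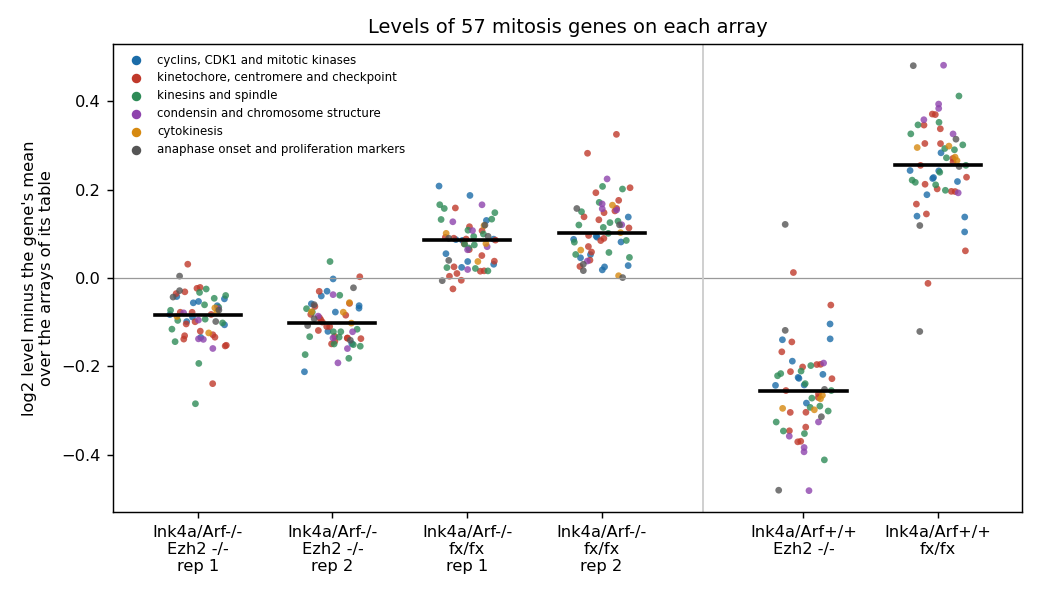
Log2 level of each of the 57 genes minus the gene's mean over the arrays of its own table (y) on each of the 6 arrays (x). Points are genes coloured by role and bars are medians, at -0.083 and -0.10 (Ezh2 -/-) and 0.085 and 0.10 (fx/fx) in Ink4a/Arf-/- cells, and at -0.25 and 0.25 in Ink4a/Arf+/+ cells.

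The second comparison asks the same in cells with an intact Ink4a/Arf locus. There 55 of 57 members were lower on the Ezh2 -/- array, against 47.2% of all genes, with a median of -0.51, or 1.42-fold, against 0.0062 over all genes. At least 1.2-fold lower were 52 members, against 10.8% of all genes, and at least 1.5-fold lower were 21, against 1.63%. The 5 members short of 1.2-fold were Cdk1, Spc25, Ube2c, Bub3 and Pttg1. No member reached 2-fold in either direction, where 0.246% of all genes were at least 2-fold lower, and 0 were at least 1.2-fold higher, against 12% of all genes. Among the brighter 14525 genes, 11.8% were at least 1.2-fold and 2% at least 1.5-fold lower. Each genotype has 1 array here, so these differences have no replicate check. The mean level of the 9 fibroblast markers was also lower on that Ezh2 -/- array, 12.17 against 12.40, while it lay between 12.46 and 12.51 on the Ink4a/Arf-/- arrays, and its part in the result was not tested.

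Under the assumption that the lone arrays vary like the Ink4a/Arf-/- replicates, limma called 15 of the 57 members lower in Ink4a/Arf+/+ cells, against 0.936% of all genes. Condensin and chromosome genes gave 5 of these 15, namely Ncapg (adjusted p = 0.0207), Smc2 (0.0308), Ncapd2 (0.0364), Top2a (0.0386) and Smc4 (0.0423). The others were Mki67, Ttk, Aspm, Kif15, Espl1, Kif11, Bub1b, Incenp, Kif2c and Prc1. The count depends on how the spread is estimated: it was 2 without either Ezh2 -/- replicate of the other background (0.386% of all genes) and 29 without either fx/fx replicate (2.2%). It was 41 without the dimmest 30% of probe sets (4.21% of the genes left), 46 with a variance trend (4.17% of all genes), 28 after quantile normalization (2.08%) and 24 with arrays centred on their medians (1.77%).

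**Figure D3:**
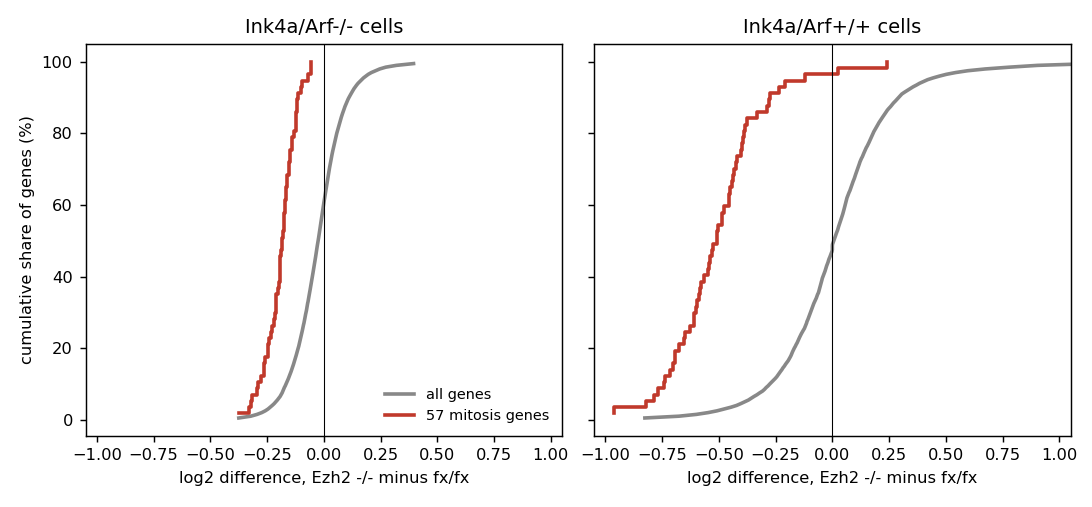
Cumulative share of genes (y, percent) against log2 difference, Ezh2 -/- minus fx/fx (x), for the 57 mitosis genes (red steps) and all 20723 genes (grey, drawn from 0.5% to 99.5%). The members' curve lies left of that of all genes in both panels, with medians of -0.18 against -0.025 in Ink4a/Arf-/- cells and -0.51 against 0.0062 in Ink4a/Arf+/+ cells.

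The 10 cyclin and kinase genes were lower in both backgrounds, with medians of -0.15 and -0.44. By the brightest probe set 0 of them reached 1.5-fold in Ink4a/Arf+/+ cells, which with 10 genes cannot be told from the 1.63% of all genes. Cdk1, the kinase that drives entry into mitosis, read 12.01 and 11.99 without Ezh2 and 12.14 and 12.08 in fx/fx controls where Ink4a/Arf was missing, a difference of -0.12 ± 0.07 (SE), and 10.88 against 11.09, a difference of -0.21, where it was intact. For Ccnb1, its cyclin B partner, the Ink4a/Arf-/- arrays gave 11.63 and 11.67 without Ezh2 and 11.77 and 11.87 with it, a difference of -0.17 ± 0.08 (SE), and the Ink4a/Arf+/+ arrays gave 10.95 and 11.22, a difference of -0.28. For both genes the Ezh2 -/- arrays were the low ones in each background, with no overlap in Ink4a/Arf-/- cells, as for 23.3% of all genes. In Ink4a/Arf+/+ cells each genotype has 1 array, so there, in this and later paragraphs, being lower tells only the sign of the difference. The other probe sets of Ccnb1 differed by -0.36 and -0.31 in Ink4a/Arf-/- cells and by -0.47 and -0.63 in Ink4a/Arf+/+ cells, more than the brightest one, and the last of these is past 1.5-fold. The levels of Plk1, the polo-like kinase of mitotic entry and exit, were 11.92 and 11.97 against 12.10 and 12.07 in Ink4a/Arf-/- cells (-0.14 ± 0.07, SE) and 11.44 against 11.82 in Ink4a/Arf+/+ cells (-0.38). The levels of Aurkb, the kinase of the chromosomal passenger complex, were 11.69 and 11.60 against 11.88 and 11.83 in Ink4a/Arf-/- cells (-0.21 ± 0.08, SE) and 10.75 against 11.18 in Ink4a/Arf+/+ cells (-0.44). Both kinases were lower on each Ezh2 -/- array than on each fx/fx array of their table.

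By the brightest probe set, the phosphatases that activate Cdk1 had the largest differences among the cyclin and kinase genes, in part by near ties. Cdc25b and Aurkb were at -0.2116 and -0.2114 in Ink4a/Arf-/- cells, and Cdc25c and Ccna2 at -0.486 and -0.484 in Ink4a/Arf+/+ cells. For Cdc25b, a phosphatase of G2, the Ink4a/Arf-/- arrays gave 9.31 and 9.37 without Ezh2 and 9.63 and 9.47 with it, a difference of -0.21 ± 0.09 (SE), and the Ink4a/Arf+/+ arrays gave 8.70 and 9.27, a difference of -0.57. The levels of Cdc25c, a phosphatase of mitotic entry, were 8.81 and 8.68 against 9.10 and 8.98 in Ink4a/Arf-/- cells (-0.30 ± 0.09, SE) and 7.34 against 7.82 in Ink4a/Arf+/+ cells (-0.49). The groups did not overlap for either gene in Ink4a/Arf-/- cells. A dimmer probe set of Cdc25b differed by -0.21 and -0.076 in the 2 backgrounds, so the size in Ink4a/Arf+/+ cells depended on the probe set. With the mean over probe sets Cdc25b was at -0.21 and -0.32 and Ccnb1 at -0.28 and -0.46, so that Ccnb1 then had the larger difference in both backgrounds. The remaining genes were cyclin A2 (Ccna2, -0.055 and -0.48), cyclin B2 (Ccnb2, -0.10 and -0.28), the spindle pole kinase Aurka (-0.18 and -0.45) and the centrosome kinase Nek2 (-0.12 and -0.45), each given as the difference in Ink4a/Arf-/- and then Ink4a/Arf+/+ cells.

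Among the 18 kinetochore, centromere and checkpoint genes the medians were -0.18 and -0.48. The checkpoint genes differed widely. Bub1, a checkpoint kinase at kinetochores, read 11.20 and 11.19 without Ezh2 and 11.43 and 11.48 in fx/fx controls where Ink4a/Arf was missing, a difference of -0.26 ± 0.07 (SE), and 10.01 against 10.53, a difference of -0.52, where it was intact. For Ttk, the checkpoint kinase Mps1, the Ink4a/Arf-/- arrays gave 8.62 and 8.61 without Ezh2 and 8.80 and 8.85 with it, a difference of -0.21 ± 0.07 (SE), and the Ink4a/Arf+/+ arrays gave 7.55 and 8.29, a difference of -0.74. Both kinases were lower on every Ezh2 -/- array than on the fx/fx arrays of the same table. The levels of Mad2l1, the checkpoint protein Mad2, were 11.74 and 11.82 against 11.89 and 12.05 in Ink4a/Arf-/- cells (-0.19 ± 0.09, SE) and 10.62 against 11.01 in Ink4a/Arf+/+ cells (-0.39). Its Ezh2 -/- arrays were again the low ones, without overlap in Ink4a/Arf-/- cells. For Bub3, a checkpoint protein that anchors Bub1, the Ink4a/Arf-/- arrays gave 11.46 and 11.33 without Ezh2 and 11.44 and 11.49 with it, a difference of -0.07 ± 0.08 (SE), and the Ink4a/Arf+/+ arrays gave 10.95 and 10.92, a difference of 0.02. For Bub3 the groups overlapped in Ink4a/Arf-/- cells, because Ezh2 -/- replicate 1 lay above fx/fx replicate 1, and the Ink4a/Arf+/+ arrays were nearly level. Bub1b, the BubR1 protein of the same checkpoint, differed by -0.15 and -0.67, and Cdc20, the activator of the anaphase-promoting complex that the checkpoint holds, by -0.20 and -0.29.

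Kinetochore and centromere genes were lower in both backgrounds, most of all the motor Cenpe with intact Ink4a/Arf. Cenpe, a kinesin that moves chromosomes to the spindle equator, read 10.04 and 10.01 without Ezh2 and 10.11 and 10.31 in fx/fx controls where Ink4a/Arf was missing, a difference of -0.19 ± 0.09 (SE), and 9.09 against 9.83, a difference of -0.74, where it was intact. For Cenpa, the histone H3 variant that marks centromeres, the Ink4a/Arf-/- arrays gave 11.37 and 11.32 without Ezh2 and 11.50 and 11.43 with it, a difference of -0.12 ± 0.07 (SE), and the Ink4a/Arf+/+ arrays gave 9.79 and 10.13, a difference of -0.33. Neither gene had overlapping groups in Ink4a/Arf-/- cells, and the gap between the backgrounds was wider for Cenpe. The levels of Cenpk, an inner kinetochore subunit, were 7.86 and 7.96 against 8.14 and 8.42 in Ink4a/Arf-/- cells (-0.38 ± 0.11, SE) and 7.10 against 7.64 in Ink4a/Arf+/+ cells (-0.54). The levels of Nuf2, a subunit of the microtubule-binding Ndc80 complex, were 10.25 and 10.26 against 10.49 and 10.61 in Ink4a/Arf-/- cells (-0.29 ± 0.08, SE) and 9.20 against 9.65 in Ink4a/Arf+/+ cells (-0.46). Cenpk had the most negative difference of all members in Ink4a/Arf-/- cells, with fx/fx arrays that themselves stood apart. For Spc25, another Ndc80 complex subunit, the Ink4a/Arf-/- arrays gave 9.65 and 9.80 without Ezh2 and 9.84 and 9.92 with it, a difference of -0.15 ± 0.09 (SE), and the Ink4a/Arf+/+ arrays gave 9.01 and 9.13, a difference of -0.12. Spc25 was 1 of 3 members, with Bub3 and Pttg1, whose difference was not more negative in Ink4a/Arf+/+ cells. The other members of the group were Ndc80 (-0.17 and -0.40), the outer kinetochore protein Cenpf (-0.14 and -0.51), the inner subunits Cenpi (-0.26 and -0.69) and Cenpn (-0.12 and -0.42), and the chromosomal passenger subunits Birc5 (-0.17 and -0.39), Incenp (-0.26 and -0.61) and Cdca8 (-0.16 and -0.61).

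The 14 kinesin and spindle genes were all at least 1.2-fold lower in Ink4a/Arf+/+ cells, with a median of -0.56, and had a median of -0.21 in Ink4a/Arf-/- cells. Kif11, the motor Eg5 that pushes spindle poles apart, read 10.97 and 10.99 without Ezh2 and 11.09 and 11.22 in fx/fx controls where Ink4a/Arf was missing, a difference of -0.17 ± 0.08 (SE), and 10.01 against 10.71, a difference of -0.69, where it was intact. For Kif15, a kinesin that can share that task, the Ink4a/Arf-/- arrays gave 9.31 and 9.38 without Ezh2 and 9.61 and 9.71 with it, a difference of -0.31 ± 0.08 (SE), and the Ink4a/Arf+/+ arrays gave 8.30 and 9.001, a difference of -0.70. In both motors the Ezh2 -/- arrays lay below the fx/fx arrays of each table. The levels of Kif18a, a kinesin that damps chromosome movement, were 8.72 and 8.73 against 9.02 and 8.98 in Ink4a/Arf-/- cells (-0.28 ± 0.07, SE) and 7.84 against 8.28 in Ink4a/Arf+/+ cells (-0.43). The levels of Aspm, a spindle pole protein, were 9.42 and 9.33 against 9.50 and 9.69 in Ink4a/Arf-/- cells (-0.22 ± 0.09, SE) and 8.44 against 9.26 in Ink4a/Arf+/+ cells (-0.82). Aspm had the largest difference of the group with intact Ink4a/Arf, and Kif15 without it. The other 10 genes ranged from -0.25 (Hmmr) to -0.13 (Kif20a) in Ink4a/Arf-/- cells and from -0.65 (Kif4, a chromokinesin) to -0.40 (Kif20a, a midzone kinesin) in Ink4a/Arf+/+ cells. They also include the depolymerising kinesin Kif2c (-0.22 and -0.60), the centralspindlin motor Kif23 (-0.19 and -0.59), the chromokinesin Kif22 (-0.23 and -0.58), Kif14 (-0.19 and -0.51), and the spindle proteins Tpx2 (-0.18 and -0.48), Spag5 (-0.15 and -0.54) and Dlgap5 (-0.19 and -0.44). A dim probe set of Kif14 differed by 0.09 and -0.05, so that its probe sets went opposite ways in Ink4a/Arf-/- cells.

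Condensin and chromosome structure genes had medians of -0.21 and -0.74, the latter the most negative of the 6 role groups in Ink4a/Arf+/+ cells, without a test between groups. The Ink4a/Arf-/- median was close to that of the kinesin and spindle genes, and their order turned without fx/fx replicate 2 and without Ezh2 -/- replicate 1, at -0.23 against -0.24 in the latter case. Ncapg, a condensin I subunit, read 9.92 and 9.86 without Ezh2 and 10.16 and 10.28 in fx/fx controls where Ink4a/Arf was missing, a difference of -0.33 ± 0.08 (SE), and 8.12 against 9.08, a difference of -0.96, where it was intact. For Smc2, a condensin ATPase, the Ink4a/Arf-/- arrays gave 10.68 and 10.64 without Ezh2 and 10.84 and 10.94 with it, a difference of -0.23 ± 0.08 (SE), and the Ink4a/Arf+/+ arrays gave 8.78 and 9.57, a difference of -0.79. Ncapg had the most negative difference of all members in Ink4a/Arf+/+ cells. For both genes the arrays of the genotypes did not overlap in Ink4a/Arf-/- cells. The levels of Smc4, the partner ATPase of Smc2, were 11.48 and 11.58 against 11.64 and 11.78 in Ink4a/Arf-/- cells (-0.18 ± 0.09, SE) and 9.42 against 10.19 in Ink4a/Arf+/+ cells (-0.77). The levels of Top2a, the topoisomerase that untangles sister chromatids, were 11.21 and 11.21 against 11.53 and 11.52 in Ink4a/Arf-/- cells (-0.32 ± 0.07, SE) and 10.19 against 10.84 in Ink4a/Arf+/+ cells (-0.65). Top2a had the smallest p of the members in Ink4a/Arf-/- cells. Its dim probe sets, with levels of 3.05 to 5.68, differed by -0.43 and -0.13 in Ink4a/Arf-/- cells and by -0.26 and -0.67 in Ink4a/Arf+/+ cells. The condensin I subunits Ncapd2 (-0.17 and -0.72) and Ncaph (-0.19 and -0.38) completed the group.

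The 4 cytokinesis genes were close to each other, with differences from -0.20 to -0.12 in Ink4a/Arf-/- cells and from -0.60 to -0.53 in Ink4a/Arf+/+ cells. Prc1, which bundles midzone microtubules, read 11.06 and 11.07 without Ezh2 and 11.25 and 11.21 in fx/fx controls where Ink4a/Arf was missing, a difference of -0.16 ± 0.07 (SE), and 9.61 against 10.20, a difference of -0.59, where it was intact. For Ect2, a factor that starts furrowing, the Ink4a/Arf-/- arrays gave 11.32 and 11.29 without Ezh2 and 11.47 and 11.50 with it, a difference of -0.18 ± 0.07 (SE), and the Ink4a/Arf+/+ arrays gave 10.05 and 10.58, a difference of -0.53. Both were lower on every Ezh2 -/- array of their table. The levels of Anln, the contractile ring scaffold anillin, were 11.54 and 11.59 against 11.70 and 11.83 in Ink4a/Arf-/- cells (-0.20 ± 0.08, SE) and 11.05 against 11.64 in Ink4a/Arf+/+ cells (-0.60). A dim probe set of Anln differed by -0.06 and 0.14, so that its direction in Ink4a/Arf+/+ cells differed between probe sets. Racgap1, the centralspindlin partner of Kif23, differed by -0.12 and -0.55.

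Genes of anaphase onset and proliferation markers spanned almost the whole range of the Ink4a/Arf+/+ comparison. Mki67, the proliferation marker Ki-67, read 11.74 and 11.68 without Ezh2 and 11.78 and 11.94 in fx/fx controls where Ink4a/Arf was missing, a difference of -0.15 ± 0.09 (SE), and 10.73 against 11.69, a difference of -0.96, where it was intact. For Espl1, the protease separase that cuts cohesin, the Ink4a/Arf-/- arrays gave 8.99 and 8.94 without Ezh2 and 9.20 and 9.20 with it, a difference of -0.24 ± 0.07 (SE), and the Ink4a/Arf+/+ arrays gave 8.11 and 8.73, a difference of -0.63. Neither gene had overlapping arrays in Ink4a/Arf-/- cells, and Mki67 was lower by a small amount in that background and 1.95-fold in the other. The levels of Pttg1, the separase inhibitor securin, were 9.68 and 9.62 against 9.80 and 9.74 in Ink4a/Arf-/- cells (-0.12 ± 0.07, SE) and 9.48 against 9.24 in Ink4a/Arf+/+ cells (0.24). Securin was lower on both Ezh2 -/- arrays without Ink4a/Arf and higher on the Ezh2 -/- array with it. The levels of Ube2c, the ubiquitin-conjugating enzyme that works with the anaphase-promoting complex, were 11.30 and 11.23 against 11.33 and 11.31 in Ink4a/Arf-/- cells (-0.06 ± 0.07, SE) and 10.36 against 10.60 in Ink4a/Arf+/+ cells (-0.24). For Foxm1, the transcription factor of G2 and mitosis genes, the Ink4a/Arf-/- arrays gave 10.60 and 10.65 without Ezh2 and 10.76 and 10.67 with it, a difference of -0.10 ± 0.08 (SE), and the Ink4a/Arf+/+ arrays gave 10.18 and 10.68, a difference of -0.50. Both were low on the Ezh2 -/- arrays of each table, with small gaps in Ink4a/Arf-/- cells.

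**Figure D4:**
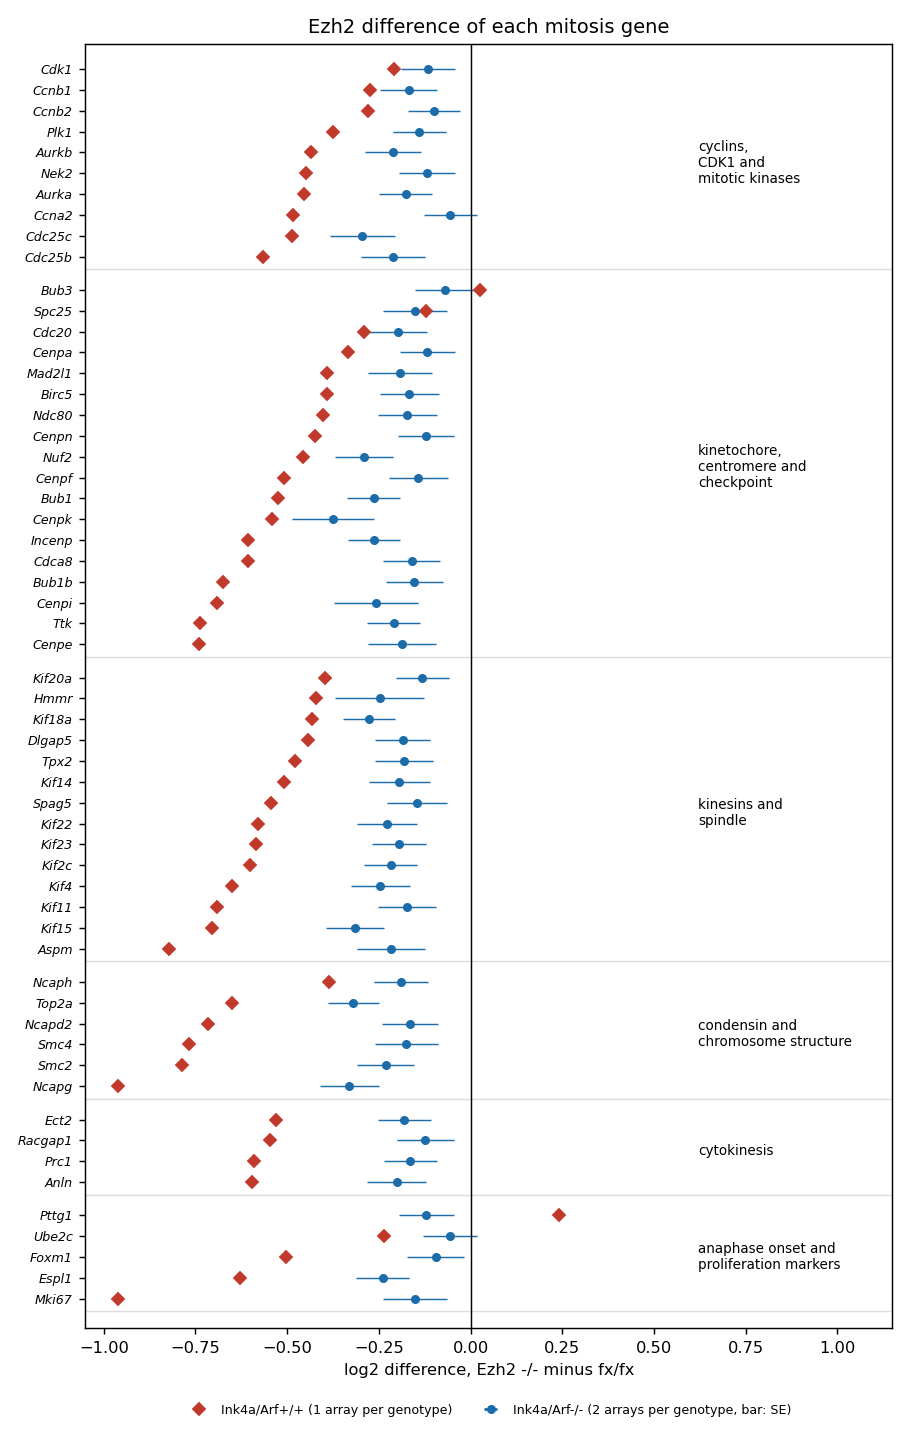
Log2 difference, Ezh2 -/- minus fx/fx (x), of each of the 57 genes (y), grouped by role and ordered by the Ink4a/Arf+/+ difference. Blue circles with SE bars are Ink4a/Arf-/- cells (2 arrays per genotype) and red diamonds Ink4a/Arf+/+ cells (1 array per genotype), with Pttg1 at 0.24 and Bub3 at 0.02 as the members right of 0.

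The difference between the backgrounds was tested in the same limma fit, with the lone arrays assumed to vary like the replicates. For 54 of 57 members the difference was more negative in Ink4a/Arf+/+ cells, against 42.9% of all genes, and the median gap was -0.33. No member passed over all probe sets (Benjamini-Hochberg), against 0.425% of all genes, and 28 members were lower at an unadjusted p below 0.05, against 4.49% of all genes. Mki67 had the largest gap, -0.81 ± 0.15 (SE, adjusted p = 0.127), followed by Ncapg at -0.63 ± 0.14 (0.176), Aspm at -0.61 ± 0.16 (0.254) and Smc4 at -0.59 ± 0.15 (0.235). With the dimmest 30% of probe sets left out, limma called Mki67 alone (adjusted p = 0.0408), against 2.22% of the genes left. A variance trend called 8 members, Mki67, Ncapd2, Smc4, Ccna2, Ncapg, Smc2, Kif11 and Bub1b, each with a more negative difference in Ink4a/Arf+/+ cells, against 2.67% of all genes in either direction. Differences were also wider in that background over all genes, with a median absolute difference of 0.14 against 0.070. The former is taken between single arrays and the latter between means of 2 arrays, in separate tables, so the 2 values are not on a like footing.

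Members with a more negative difference in one background tended to have one in the other. Across the 57 genes Pearson's r was 0.46 and Spearman's rank correlation 0.46, against 0.27 and 0.25 across all genes, and the 2 differences share no array. Genes are not independent replicates, so no p is given, and r was 0.22 without fx/fx replicate 2 of Ink4a/Arf-/- cells. Members with a CHR match had a median of -0.58 in Ink4a/Arf+/+ cells and those without -0.45, while in Ink4a/Arf-/- cells the order was turned, at -0.17 and -0.19.

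**Figure D5:**
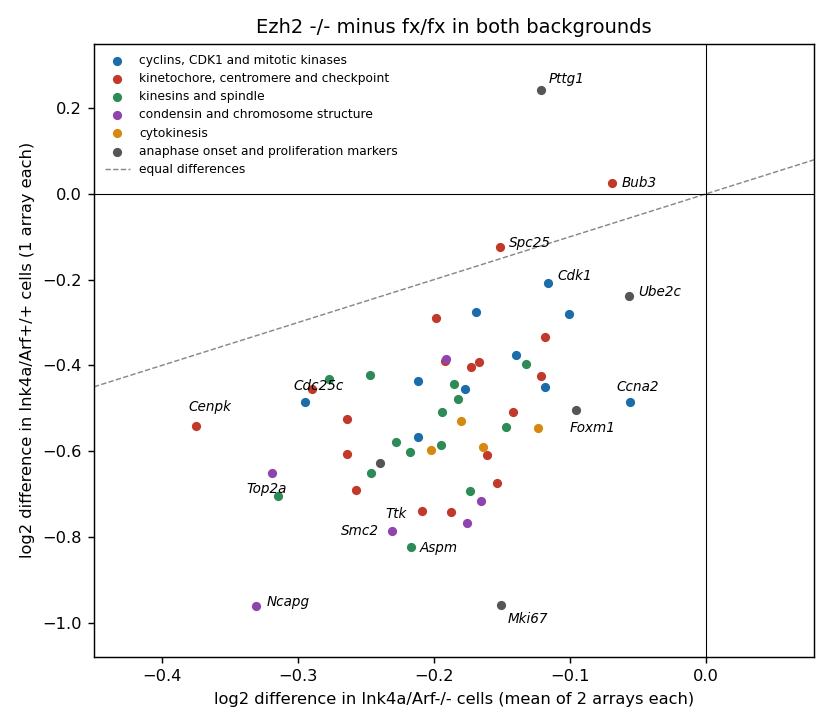
Log2 difference of each of the 57 genes in Ink4a/Arf-/- cells (x, 2 arrays per genotype) and in Ink4a/Arf+/+ cells (y, 1 array per genotype), coloured by role, with a dashed line of equal differences. All but 3 points, Pttg1, Bub3 and Spc25, lie below the line.

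Other genes of mitosis, listed by role with earlier results of these data known, were found for 91 of 98 names, of which Haspin and Gsg2 are the current and earlier symbol of 1 gene. Without Ink4a/Arf 82 of 91 were lower, against 60.4% of all genes, 62 of them without overlap, against 23.3%, 0 passed limma's test over all probe sets, and the median was -0.15. With Ink4a/Arf intact 79 of 91 were lower, against 47.2% of all genes, 53 by at least 1.2-fold, against 10.8%, and 1 was at least 1.2-fold higher, against 12%. Zwint, a kinetochore protein, was that gene: it read 11.88 and 11.88 against 11.97 and 11.90 in Ink4a/Arf-/- cells, and 10.84 against 10.47 in Ink4a/Arf+/+ cells, a difference of 0.37. With the spread of the Ink4a/Arf-/- replicates limma called 4 of the 91 lower there, against 0.936% of all genes, and 0 higher, by the same test whose count of members ran from 2 to 46 with the setting.

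The other kinetochore and centromere genes resembled the members, with medians of -0.22 and -0.41 over 25 genes and the largest differences in Cenph (-0.45) and Oip5 (-0.37) without Ink4a/Arf and in Oip5 (-0.77) and Kntc1 (-0.75) with it. Over 17 other spindle and cytokinesis genes the medians were -0.16 and -0.38, with Ckap2 (-0.30) and Tacc3 (-0.27) at the front in Ink4a/Arf-/- cells and Kif20b (-0.77) and Haus6 (-0.56) in Ink4a/Arf+/+ cells. The 14 other kinases, phosphatases and CDK regulators had medians of -0.16 and -0.32, led by the kinase genes Gsg2 (-0.29) and Melk (-0.24), and in the other background by Plk4 (-0.61) and Melk (-0.55). The 3 other condensin genes, which encode condensin II subunits, had medians of -0.21 and -0.37, with Ncapg2 at -0.29 and -0.65, Ncaph2 at -0.21 and -0.14 and Ncapd3 at -0.04 and -0.37.

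Genes of the anaphase-promoting complex and of cohesin, subunits and regulators together, had smaller differences than the members, with medians of -0.052 and -0.17 over 24 genes. In each background 20 of 24 were lower, against 60.4% and 47.2% of all genes, and 7 were at least 1.2-fold lower in Ink4a/Arf+/+ cells, against 10.8%. These 7 were Cdca5, Fbxo5, the cohesin subunits Smc1a and Rad21, and the cohesin regulators Pds5a, Pds5b and Nipbl. The subunits of the anaphase-promoting complex itself ranged there from -0.18 (Anapc1) to 0.23 (Cdc26). The genes in front were not core subunits: Cdca5, the cohesin stabiliser sororin (-0.31 and -0.56), and Fbxo5, the inhibitor Emi1 of the complex (-0.22 and -0.74). The 8 genes of MuvB and its partners had medians of -0.16 and -0.20 and went both ways. With the mean over probe sets the Ink4a/Arf-/- median was -0.093. Of the MuvB genes, Lin9 was at -0.29 and -0.42, Lin54 at -0.18 and -0.30, Lin37 at 0.11 and 0.15 and Lin52 at 0.06 and 0.15. Of the partners, B-Myb (Mybl2) was at -0.24 and -0.48 and E2f4 at -0.14 and 0.03. The pocket protein genes Rbl1 and Rbl2 were at -0.18 and -0.59 and at 0.05 and -0.09. None of these differences passed limma's test over all probe sets in Ink4a/Arf-/- cells.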

How the data were processed

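Each Ink4a/Arf background has a table that the authors deposited, holding log2 levels by array beside their log2 fold changes and p-values, per the file headers. From 150 ng of RNA, labelled cDNA was made for whole-transcript Affymetrix chips, per the labels' protocols, and the submitters' processing notes name limma with no version. Normalization and the model behind the deposited p-values were steps not given in the sources used here. The series matrix holds the same values. Members, roles, lists and tests were chosen with earlier results of these data known.

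Limma 3.58.1 (R 4.3.3) was fitted to all 6 arrays with 1 mean per group, with 2 residual degrees of freedom from the Ink4a/Arf-/- arrays. Two-sided p-values got a Benjamini-Hochberg adjustment over 23346 probe sets, at a threshold of 0.05. Lists were described by counts and medians beside all genes. The fit was run on simulated data with set differences of at least 1.5-fold and the same spread on every array. Most members differed by less, so that run does not check these results. Arrays with the same replicate number did not deviate together (correlation 0.026), so the main fit did not pair them by number. With 2 arrays per group this cannot show whether the numbers mark a shared culture or day. Values on every array are given for 15 members fixed by name, the 2 with the largest difference per role group and background, and any named by a count of at most 5. Alternatives were a filter on dim probe sets, a variance trend, quantile normalization, centring, the mean over probe sets, the deposited p-values, the replicate block and leaving out each replicated array. Ska2, Ska3, Mis18a, Kifc1, Mastl and Bora were not found under these symbols, and Haspin was found as Gsg2. Promoter windows came from RefSeq (GRCm38.p6). The number of arrays limits the precision.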

Additional observations from a re-analysis of the deposited data

Results flagged for a closer look

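Pttg1, which encodes securin, differed in opposite directions in the 2 backgrounds: both Ezh2 -/- arrays were below both fx/fx arrays without Ink4a/Arf, and the Ezh2 -/- array was above the fx/fx array with it. The difference between the backgrounds was 0.36 ± 0.13 (SE) and did not pass limma's test over all probe sets (adjusted p = 0.392, unadjusted p = 0.0327). It rests on 1 array per genotype in Ink4a/Arf+/+ cells and sets 2 tables against each other.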

How the results depend on the processing

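The median difference of the members in Ink4a/Arf-/- cells was -0.16 after quantile normalization and -0.17 with each array centred on its median, and between -0.199 and -0.168 with 1 array left out. In Ink4a/Arf+/+ cells it was -0.53 with centring and -0.49 with the mean over the probe sets of a gene. In Ink4a/Arf-/- cells 0 probe sets of members were called under each alternative with no replicate left out. At an unadjusted p below 0.05 limma had 24 of 64, against 6.93% of all probe sets, a share counted for that fit alone. That count was 20 with the replicate block, 17 by the deposited p-values, 32 without the dimmest 30% of probe sets and 44 with a variance trend. The share of all probe sets was not counted in these settings, so a higher or lower count there is no result about the members. The same count was lower without either Ezh2 -/- replicate and without fx/fx replicate 2, and higher without fx/fx replicate 1. Each of these runs leaves a single array in the group concerned. The replicate block left the median difference at -0.18. Of the 52 members at least 1.2-fold lower in Ink4a/Arf+/+ cells, limma with the spread of the other groups called 15. That count, in alternatives chosen after the data were seen, was 41 without the dimmest 30% of probe sets, 46 with a variance trend, 28 after quantile normalization, 24 with centring, and between 2 and 29 with 1 array left out. The number of member probe sets called different between backgrounds was 1 without the dimmest 30% and 8 with a variance trend, against 0 otherwise. The correlation of the differences over members was between 0.22 and 0.49 with 1 array left out. The cause of these shifts was not tested. No single member changed direction in an alternative run.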
